A study of Bos taurus with 10 samples.

Results

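EMI1, encoded by FBXO5, and the anaphase-promoting complex (APC/C) that it inhibits were examined at the transcript level in bovine oocytes before and after in vitro maturation. The set held 10 gene names: the inhibitor FBXO5, the activators CDC20 and FZR1, the subunits CDC16, CDC23, CDC26, CDC27, ANAPC10 and ANAPC11, and the substrate PTTG1, which encodes securin. A gene was taken when a probe set on the Affymetrix bovine array carried its symbol and no other, and this gave 7 genes with 1 probe set each among the 9155 genes with a symbol and the 24016 probe sets tested. In the annotation used here no probe set carried FZR1 or CDC27, and PTTG1 stood only on a probe set shared with PCGF2, so these 3 genes were not analysed. The sequences and positions of the 7 probe sets were not used here.

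The IVM group was 5 pools of oocytes taken at 24 h, after culture inside their cumulus in TCM-199 at 39°C with 10% fetal calf serum and 10 ng/ml of epidermal growth factor. The immature group was 5 pools taken at 0 h without culture. All oocytes came from follicles of 3 to 8 mm on ovaries of slaughtered cows, both groups were stripped of cumulus before freezing, and the study's methods name each replicate a day of ovary collection. Each pool was read on its own array after 100 ng of RNA had been amplified, and the deposited values are log2 values in which a step of 1 is a 2-fold change in summarised signal. As the RNA was pooled, fewer cells of a type and less RNA per cell cannot be told apart.

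The APC/C is a ubiquitin ligase that marks cyclins, securin and other proteins for destruction, and so starts anaphase and the exit from division. It works with the activator CDC20 or FZR1 (also called CDH1), and EMI1 blocks it by binding like a substrate without being released. In mouse oocytes, FZR1-bound APC/C keeps cyclin B low during prophase arrest, EMI1 lets cyclin B rise when meiosis resumes, and the related EMI2 holds the later arrest at metaphase II.

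FBXO5 fell in IVM oocytes, by the largest difference among the 7 genes. Its log2 values were 6.18, 5.58, 6.67, 6.06 and 5.68 in IVM replicates 1 to 5, against 14.00, 14.29, 14.00, 14.03 and 14.07 in immature replicates 1 to 5. Every IVM array lay below every immature array, with a gap of 7.32 between the highest IVM and the lowest immature value. The mean was 6.03 ± 0.44 in IVM oocytes and 14.08 ± 0.12 in immature oocytes (SD, n = 5 each), a difference of -8.04 on the log2 scale (standard error 0.20, 95% interval -8.51 to -7.58). The adjusted p in limma, with Benjamini-Hochberg adjustment over all 24016 probe sets, was 6.8e-08, under the threshold of 0.0001. The study's methods set that value as false discovery rate for the SAM test, after probes called non-informative had been excluded. Here it was applied to limma without such an exclusion. The deposited values carry no detection calls, so whether the IVM signal of FBXO5 lay above background was not tested, and no linear fold is given.

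**Figure D1:**
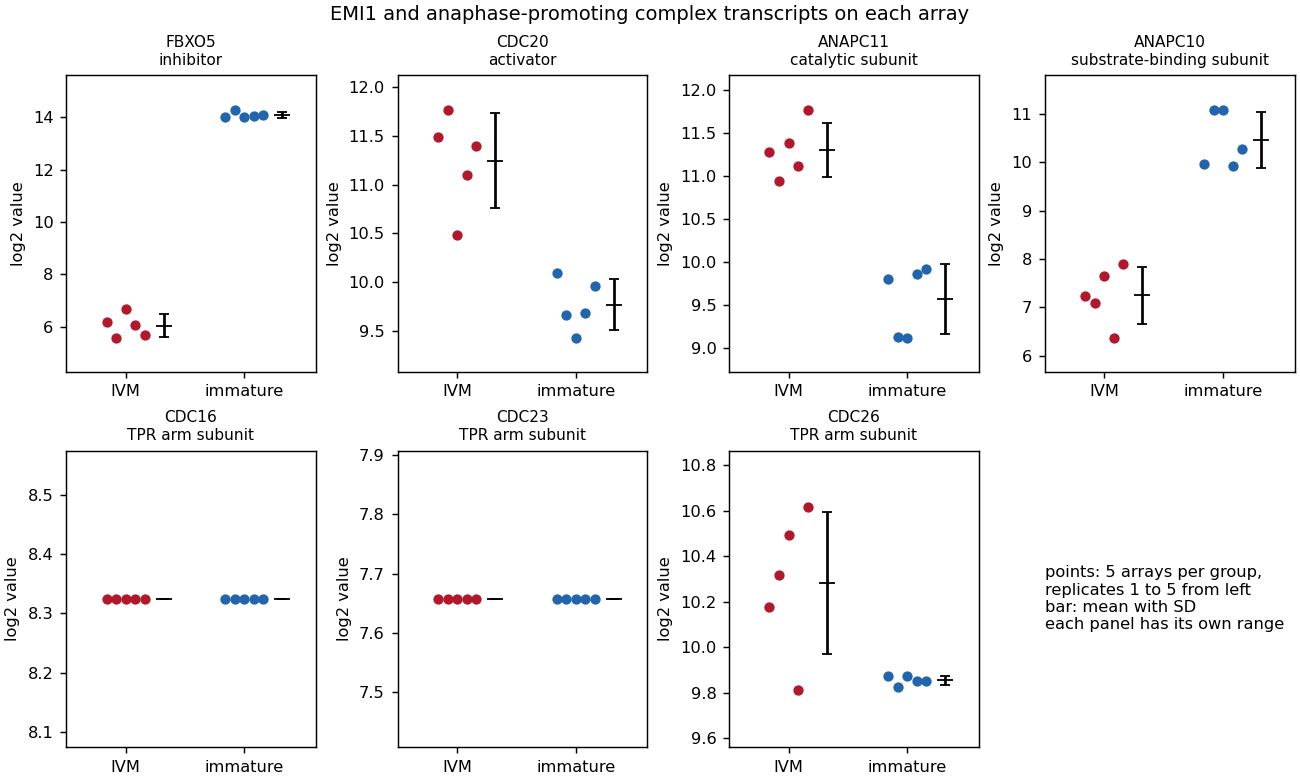
Log2 values of the 7 genes on each array, with IVM arrays on the left of each panel and immature arrays on the right, replicates 1 to 5 as points and the mean with its SD as a bar; each panel has its own range. FBXO5 lies between 5.58 and 6.67 in IVM oocytes and between 14.00 and 14.29 in immature oocytes, while CDC16 and CDC23 have a single value on all arrays.

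No probe set of the array had a larger fall than FBXO5. The next was that of PDE6C at -6.55, and FBXO5 kept the first place in each of the 11 fits that left out arrays, the ones that could change this rank. Its p-value ranked 46 among the 24016. With the replicate number as a block over all probe sets the difference was still -8.04, but the adjusted p was 0.000554, and no probe set of the array passed under that fit (0%, the smallest adjusted p of any being 0.000176, with 8805 probe sets at an unadjusted p under 0.05). With the same block over the 9460 probe sets whose values vary by at least 0.01 between arrays, FBXO5 passed at an adjusted p of 3.83e-06, beside 11.6% of those probe sets. The differences between arrays of the same number were -7.82, -8.71, -7.32, -7.97 and -8.39 for replicates 1 to 5.

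CDC20 and FZR1 are the activators that bring substrates to the APC/C, with CDC20 acting at the onset of anaphase. The log2 values of CDC20 were 11.49, 11.77, 10.49, 11.10 and 11.40 in IVM oocytes, against 10.09, 9.66, 9.43, 9.68 and 9.96 in immature oocytes. The groups did not overlap, with IVM replicate 3 as the lowest of its group and immature replicate 1 as the highest of its own. The mean was 11.25 ± 0.49 in IVM oocytes and 9.77 ± 0.26 in immature oocytes (SD, n = 5 each), 1.48 higher in IVM (standard error 0.25, 95% interval 0.92 to 2.05, or 2.80-fold). The adjusted p in limma was 0.00218, which did not reach 0.0001.

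ANAPC11 is the RING subunit that, with the cullin ANAPC2, forms the catalytic core. Its log2 values were 11.28, 10.95, 11.39, 11.12 and 11.77 in IVM oocytes, against 9.81, 9.14, 9.13, 9.87 and 9.93 in immature oocytes. All IVM arrays lay above all immature arrays, and immature replicates 2 and 3 lay below the other 3 of their group. The mean was 11.30 ± 0.31 in IVM oocytes and 9.57 ± 0.41 in immature oocytes (SD, n = 5 each), a difference of 1.73 (standard error 0.23, 95% interval 1.21 to 2.25, or 3.32-fold) with an adjusted p of 0.000609 in limma, which did not pass. When only the 9460 probe sets varying by at least 0.01 were fitted, a fit in which 25.1% of probe sets passed, it was 5.34e-05 for ANAPC11 and 0.00026 for CDC20.

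ANAPC10, the subunit that holds substrates together with the activator, had a difference of the opposite sign to ANAPC11. Its log2 values were 7.24, 7.10, 7.66, 6.37 and 7.89 in IVM oocytes, against 9.96, 11.07, 11.08, 9.92 and 10.27 in immature oocytes. The groups were 2.04 apart at their nearest arrays, and immature replicates 2 and 3, which were low for ANAPC11, were the highest for ANAPC10. The mean was 7.25 ± 0.58 in IVM oocytes and 10.46 ± 0.58 in immature oocytes (SD, n = 5 each), a difference of -3.21 (standard error 0.36, 95% interval -4.05 to -2.37). The adjusted p in limma was 0.000264, just outside the threshold, and it was 1.63e-05 in the fit of the 9460 varying probe sets.

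CDC16, CDC23, CDC26 and CDC27 belong to the arm of the complex built of TPR repeats, which binds the activators, and CDC26 is a small protein that props up CDC16. The log2 values of CDC26 were 10.18, 10.32, 10.49, 9.81 and 10.61 in IVM oocytes, against 9.87, 9.83, 9.87, 9.85 and 9.85 in immature oocytes. Of the IVM arrays only replicate 4 was not above the immature arrays, and it lay below all of them. The mean was 10.28 ± 0.31 in IVM oocytes and 9.86 ± 0.02 in immature oocytes (SD, n = 5 each), a difference of 0.43 (standard error 0.14, 95% interval 0.11 to 0.75) with an adjusted p of 0.0484 in limma. Without IVM replicate 4 the difference was 0.55 with an adjusted p of 0.00208, and without any other array the adjusted p lay between 0.07 and 0.0997.

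CDC16 and CDC23 had a log2 value of 8.32 and 7.66 on each of the 10 arrays, with a range under 0.01. This was the case for 14556 of the 24016 probe sets, since FARMS, which the authors used to summarise the probes, flattens a probe set whose probes share little signal. Such values tell nothing of a difference between the groups, and both genes were left out of the counts that follow.

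Of the 5 genes that vary, 1 fell (FBXO5) and 0 rose at an adjusted p under 0.0001 in limma, beside 4.81% of all 24016 probe sets that fell and 0.974% that rose, or 12.1% and 2.38% of the 9460 varying ones. At an adjusted p under 0.05 the counts were 2 lower (FBXO5 and ANAPC10) and 3 higher (CDC20, ANAPC11 and CDC26), beside 15% and 15.5% of all and 31.7% and 34% of varying probe sets, and at an unadjusted p under 0.05 they were also 2 and 3, beside 34.3% and 41.5% of varying probe sets. A SAM-type test at an estimated false discovery rate under 0.0001 counted 2 lower and 2 higher. Beside these stood 23.3% and 20.3% of varying probe sets, and 17.2% of all probe sets in either direction. This estimate is the median number of false calls over 100 permutations divided by the number called. It was 0 for FBXO5, ANAPC10, CDC20 and ANAPC11, and it is too coarse to resolve a rate of 0.0001. The groups did not overlap for 4 of the 5 genes, beside 56.3% of varying probe sets. With only the 9460 varying probe sets fitted in limma, FBXO5 and ANAPC10 fell and ANAPC11 rose at an adjusted p under 0.0001. In that fit 25.1% of probe sets passed in either direction. The absolute difference of FBXO5 exceeded that of 99.97% of varying probe sets, against 95.5% for ANAPC10, 82.1% for ANAPC11, 77% for CDC20 and 27.5% for CDC26.

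**Figure D2:**
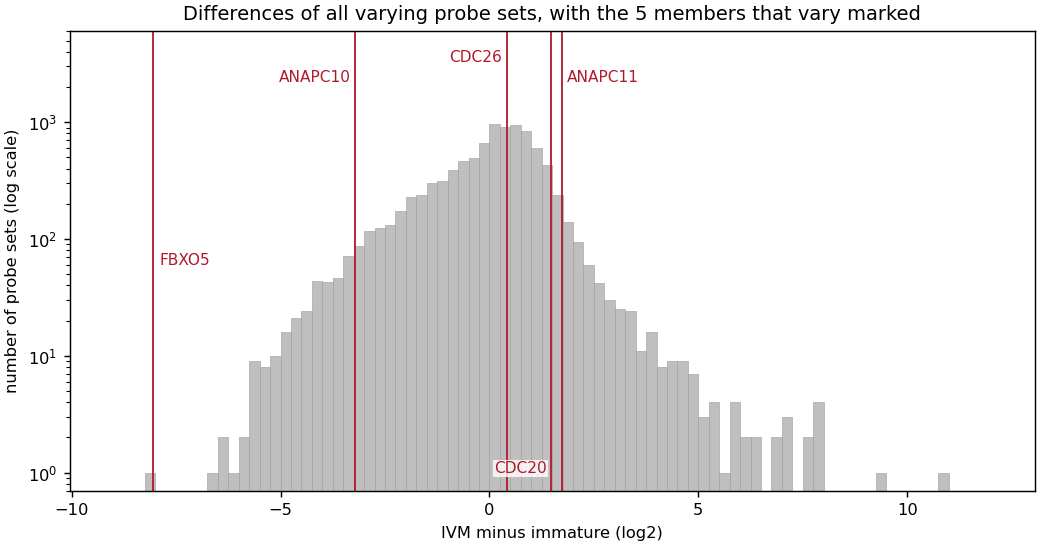
Number of varying probe sets (log scale) by the difference of IVM minus immature on the log2 scale, in bins of 0.25, with lines at the 5 genes that vary. FBXO5 at -8.04 is alone at the low end, ANAPC10 lies at -3.21 in the low tail, and CDC26, CDC20 and ANAPC11 lie at 0.43, 1.48 and 1.73.

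The spread between pools differed between genes and groups. Over the varying probe sets the median SD was 0.31 in IVM oocytes and 0.19 in immature oocytes. FBXO5 followed this order with 0.44 in IVM and 0.12 in immature oocytes, and CDC26 did so most clearly, its immature SD of 0.02 being above that of only 1.06% of varying probe sets. ANAPC10 had an SD of 0.58 in both groups and ANAPC11 had the smaller one in IVM oocytes, 0.31 against 0.41.

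Poly-A control transcripts are meant to be added to the RNA before amplification, though the paper's methods do not mention them. They averaged 8.17 ± 0.22 in IVM and 7.12 ± 0.17 in immature oocytes (log2, SD, n = 5 each), a difference of 1.05 (p = 0.00794 in a two-sided exact permutation test, which can go no lower with 5 arrays a group). The median of all tested probe sets was 7.04 to 7.10 on the immature arrays, close to that immature mean. Whether these controls lay above background was not tested. Hybridization controls averaged 10.92 ± 0.19 in IVM and 10.02 ± 0.73 in immature oocytes (p = 0.0556 in the same exact test), and immature replicates 1, 2 and 3 were the low ones at 9.38 to 9.73. With immature replicates 4 and 5 alone as immature arrays, the FBXO5 difference was -8.01, CDC20 stood at 1.43, ANAPC11 at 1.40, ANAPC10 at -2.85 and CDC26 at 0.43. The adjusted p of FBXO5 was then 0.000382 in limma, and 0.0167% of all probe sets passed that fit.

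The direction of CDC26 depended on the scaling, and the size of CDC20 and ANAPC11 did so strongly. When each array was centred on its poly-A controls, which moves the median difference of all probe sets by -1.05, FBXO5 was at -9.10 and ANAPC10 at -4.26 (adjusted p = 6.36e-08 in limma, past the threshold, as were 78.9% of all probe sets in the same direction). CDC20 was at 0.43 with an adjusted p of 0.0712, ANAPC11 at 0.68 with 0.00955, and CDC26 turned to -0.62 with 0.00566. When arrays were centred on the median of the varying probe sets, the differences were -7.94 for FBXO5, -3.11 for ANAPC10, 1.59 for CDC20, 1.83 for ANAPC11 and 0.53 for CDC26. Which scaling is right for RNA amplified from oocytes was not tested.

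**Figure D3:**
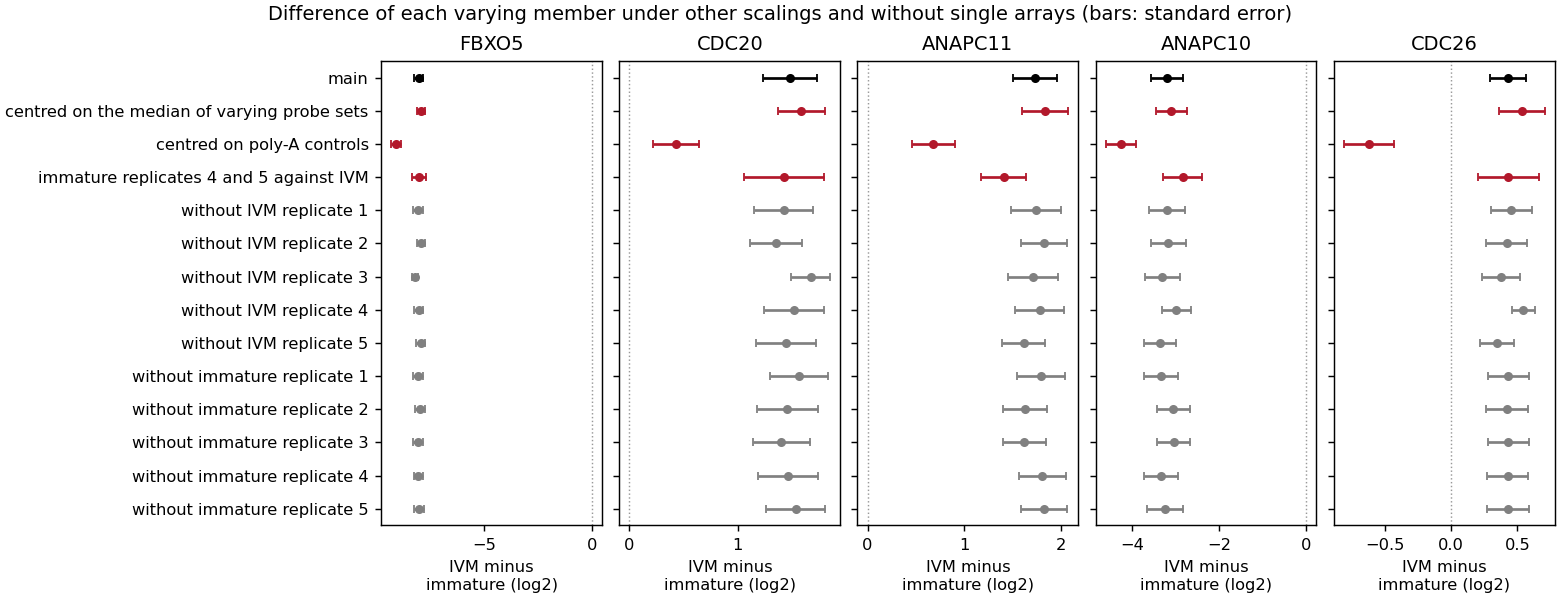
Difference of IVM minus immature (log2, bars are the standard error) for the 5 genes that vary, in the main fit, under 2 other centrings, with immature replicates 4 and 5 alone, and without each single array; each panel has its own range. FBXO5 stays between -9.10 and -7.93, and only CDC26 crosses zero, at -0.62 when centred on poly-A controls.

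The labelled cell type was checked against oocyte transcripts. Of 10 oocyte markers 8 were on the array and varied, and their mean log2 value was 10.29 to 11.66 on the IVM arrays and 12.69 to 13.21 on the immature arrays (difference -1.92, p = 0.00794 in a two-sided exact permutation test); 2 of the 8 passed the threshold, both lower in IVM, while BMP15 (0.19), KPNA7 (0.37) and MOS (0.14) had positive differences. All 12 cumulus and granulosa markers were on the array and 10 varied, with a mean of 8.81 to 11.37 in IVM and 6.87 to 9.30 in immature oocytes (difference 1.73, p = 0.0238 in the same exact test). This mean rested on TNFAIP6 (10.86) and PTX3 (6.38), genes of the expanding cumulus, as the other 8 averaged 0.01. Of the 10, 4 were positive, the others being VCAN (3.96) and HAS2 (1.40), and 6 were negative, down to -1.79 for FST. The median of the 10 was -0.33. Of 9 markers of other somatic and blood cells, VIM, LUM and KRT18 varied, with a mean of 8.58 to 11.79 in IVM and 6.80 to 10.16 in immature oocytes (difference 1.92, p = 0.0397 in the same exact test). LUM differed by 4.37 and KRT18 by 3.92 but VIM by -2.51. The paper reported LUM as higher by qPCR in denuded oocytes matured in vitro and in vivo. It proposes LUM as a potential marker of oocyte maturation, and the source of the LUM signal was not tested here. COL1A1, COL1A2, KRT8 and the blood markers PTPRC, CD14 and HBB hardly varied, and such flat values tell nothing of a difference. The part of these shifts in the APC/C results was not tested. IVM replicate 4 had a mean Pearson correlation of 0.86 with the other IVM arrays. Of the IVM arrays it had the lowest oocyte marker mean (10.29) and the highest means of the other 2 marker lists (11.37 and 11.79). Without it the counts among the 5 genes that vary were again 1 lower and 0 higher at 0.0001.

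The other subunits of the complex were next set beside the 7 genes. Of 8 further subunits 6 were on the array and varied, 2 fell, 0 rose and 4 did not pass, beside 12.1% and 2.38% of varying probe sets that fell and rose. Their median difference was -0.77 against 0.18 over all varying probe sets. At an unadjusted p under 0.05 in limma 4 were lower and 1 was higher, beside 34.3% and 41.5% of varying probe sets. ANAPC13, a small subunit that steadies the TPR arm, had log2 values of 7.83, 7.96, 8.06, 7.30 and 8.17 in IVM oocytes, against 11.51, 11.55, 11.56, 11.46 and 11.45 in immature oocytes, a difference of -3.64 (standard error 0.15, adjusted p = 8.89e-07 in limma). ANAPC7, another TPR subunit, had 8.21, 8.44, 8.32, 8.10 and 8.23 in IVM oocytes, against 11.17, 11.27, 11.04, 11.08 and 11.13 in immature oocytes, a difference of -2.88 (standard error 0.07, adjusted p = 6.14e-08 in limma). Both genes had arrays of each group close together and a wide gap between the groups, and both passed in all 10 fits that left out 1 array.

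Over the 11 subunits with a probe set of their own, 9 varied, 4 of them with a positive difference as deposited, which only ANAPC11 kept when centred on poly-A controls, and 5 with a negative one, within a range of -3.64 for ANAPC13 to 1.73 for ANAPC11 and a median of -0.62. In limma 2 fell and 0 rose at an adjusted p under 0.0001, beside 12.1% and 2.38% of varying probe sets. An unadjusted p under 0.05 was reached by 5 lower and 3 higher ones, beside 34.3% and 41.5% of varying probe sets. By the SAM-type test 4 were lower and 1 was higher, beside 23.3% and 20.3%.

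Of 3 ubiquitin-conjugating enzymes of the APC/C, 2 were on the array and varied, and UBE2D1 was not analysed here. Of these 0 fell, 0 rose and 2 did not pass, beside 12.1% and 2.38% of varying probe sets that fell and rose. At an unadjusted p under 0.05 in limma 0 were lower and 1 was higher, beside 34.3% and 41.5% of varying probe sets. By the SAM-type test the counts were likewise 0 and 1, beside 23.3% and 20.3%. UBE2S, which extends ubiquitin chains, had 9.39, 8.96, 9.02, 8.60 and 9.82 in IVM oocytes, against 8.20, 7.93, 8.22, 8.19 and 8.16 in immature oocytes, a difference of 1.02 (adjusted p = 0.00722 in limma) that was -0.03 when centred on poly-A controls. UBE2C, which starts the chains, had a mean of 10.08 ± 0.45 in IVM and 10.19 ± 0.21 in immature oocytes (SD, n = 5 each), a difference of -0.11 with an adjusted p of 0.786 in limma. As deposited, UBE2S was higher on every IVM array, and the groups overlapped for UBE2C.

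Among genes listed as spindle checkpoint inhibitors of the APC/C, 5 of 9 were on the array and varied, with a median difference of -1.13. Of these 2 fell, 0 rose and 3 did not pass, beside 12.1% and 2.38% of varying probe sets that fell and rose. At an unadjusted p under 0.05 in limma 3 were lower and 0 higher, beside 34.3% and 41.5% of varying probe sets, and by the SAM-type test likewise 3 and 0, beside 23.3% and 20.3%. BUB3, which carries checkpoint kinases to kinetochores and is part of the complex that sequesters CDC20, had 11.42, 11.36, 11.37, 10.94 and 11.47 in IVM oocytes, against 12.88, 12.90, 12.80, 12.72 and 12.87 in immature oocytes, a difference of -1.52 (standard error 0.10, adjusted p = 1.03e-05 in limma). MAD2L2, best known as a subunit of a translesion DNA polymerase and as a binder of FZR1, averaged 8.79 ± 0.59 in IVM and 12.72 ± 0.26 in immature oocytes (SD, n = 5 each), a difference of -3.93 (standard error 0.29, adjusted p = 1.91e-05 in limma). Its other probe set differed by -3.28 and also passed, and the first passed in 4 of the 10 fits that left out an array. MAD2L1 and BUB1B, which bind CDC20 in the checkpoint complex, differed by 0.17 and 0.16 with overlapping groups. Centred on poly-A controls, they were at -0.88 and -0.89. BUB1, the remaining varying gene of the list, was lower on every IVM array, with a difference of -1.13. Its adjusted p of 0.00475 in limma did not pass. These 3 genes were named after their values had been seen.

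**Figure D4:**
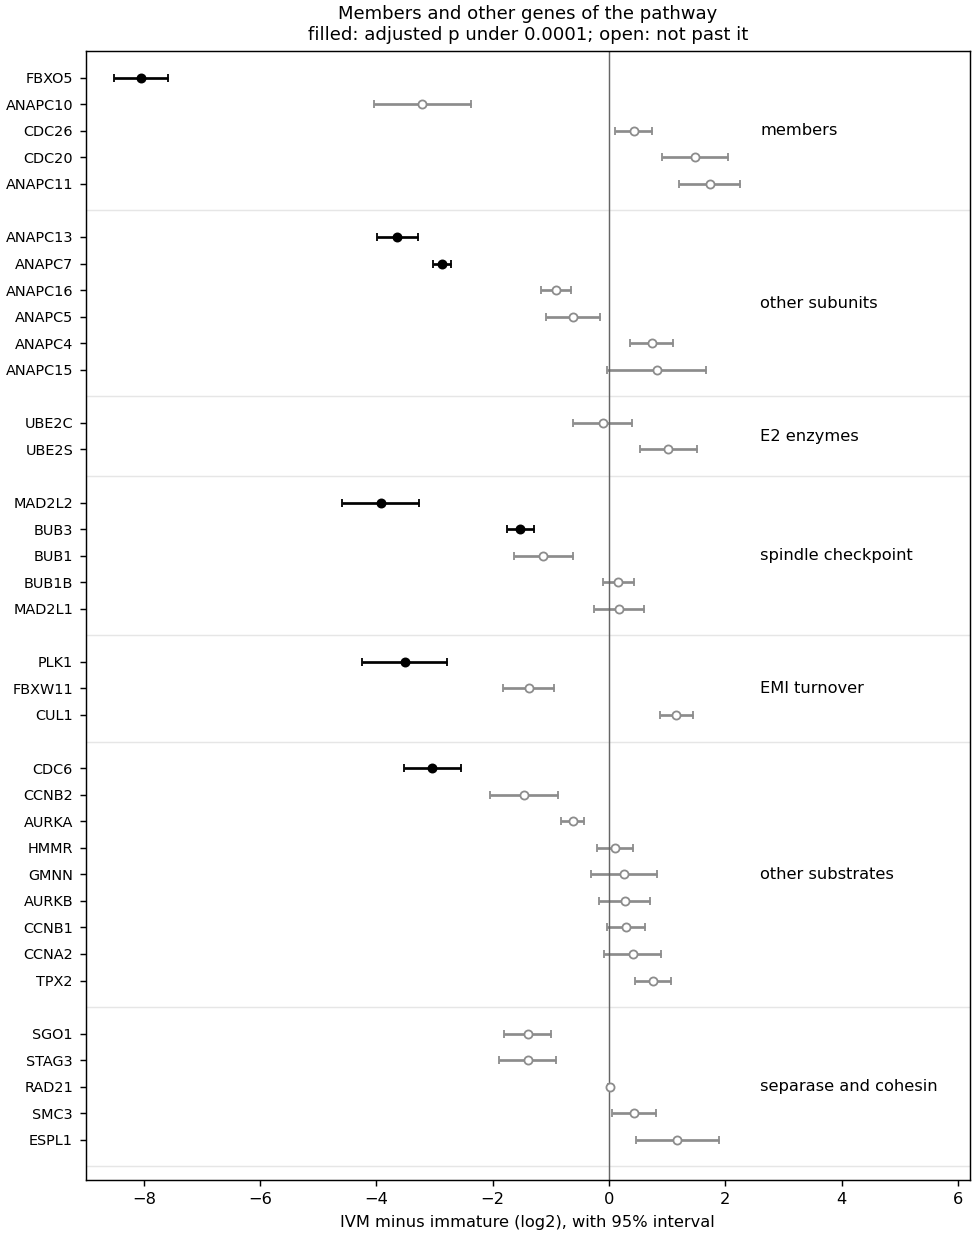
Difference of IVM minus immature (log2) with its 95% interval for the 5 genes that vary and the 30 other varying genes of the pathway, grouped by role; filled points are past an adjusted p of 0.0001 in limma and open points are not. The 7 filled points are all on the negative side, and FBXO5 at -8.04 is more than 4 units below the next, MAD2L2 at -3.93.

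EMI1 is destroyed through a ligase of the SCF type once PLK1 has phosphorylated it. Of 8 genes for EMI2 and for the turnover of EMI proteins, 3 were on the array and varied. Of these 1 fell, 0 rose and 2 did not pass, beside 12.1% and 2.38% of varying probe sets that fell and rose. FBXO43, which encodes EMI2, was not analysed here. The list's counts at an unadjusted p under 0.05 in limma were 2 lower and 1 higher, beside 34.3% and 41.5% of varying probe sets. PLK1 had 8.63, 8.06, 8.51, 7.41 and 8.67 in IVM oocytes, against 12.29, 11.39, 11.19, 11.83 and 12.16 in immature oocytes, a difference of -3.51 (standard error 0.32, adjusted p = 6.94e-05 in limma) that passed in 1 of the 10 fits leaving out an array. CUL1, the scaffold of SCF ligases, was higher on all IVM arrays as deposited, with a difference of 1.16 and an adjusted p of 0.000154 in limma. FBXW11, an F-box protein that recognises EMI1, was lower on all of them with -1.38 and 0.000793 in limma. Centred on poly-A controls, CUL1 was at 0.11 and FBXW11 at -2.44. These last genes, both outside the threshold, were named after their values had been seen.

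Of 12 other substrates of the APC/C, 9 were on the array and varied, with a median difference of 0.26. Of these 1 fell, 0 rose and 8 did not pass, beside 12.1% and 2.38% of varying probe sets that fell and rose. At an unadjusted p under 0.05 in limma 3 were lower and 1 was higher, beside 34.3% and 41.5% of varying probe sets. CDC6, which licenses DNA replication, averaged 8.11 ± 0.44 in IVM and 11.15 ± 0.19 in immature oocytes (SD, n = 5 each), a difference of -3.04 (standard error 0.21, adjusted p = 1.48e-05 in limma). Its other probe set differed by -2.26 with an adjusted p of 0.000327, outside the threshold, and the first passed in 6 of the 10 fits that left out an array. CCNB1, the cyclin B whose loss ends M phase, averaged 12.72 ± 0.30 in IVM and 12.43 ± 0.13 in immature oocytes with overlapping groups and an adjusted p of 0.187. CCNB2, the other B-type cyclin of the list, was lower on every IVM array, with a difference of -1.46 and an adjusted p of 0.00281 that did not pass. The kinase AURKA showed probe sets at odds, at -0.63 and 0.54, neither past the threshold. TPX2 was higher on every IVM array as deposited for both probe sets, at 0.76 and 1.11. Their adjusted p in limma, 0.0031 and 0.000548, did not pass, and the first was at -0.29 when centred on poly-A controls. Of the 9 substrates, 6 were positive and 3 negative as deposited. CCNB1, CCNB2, AURKA and TPX2 were named after their values had been seen.

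Of 9 genes for separase, shugoshins and cohesin, 7 were on the array and 5 varied, with a median difference of 0.01. Of these 0 fell, 0 rose and 5 did not pass, beside 12.1% and 2.38% of varying probe sets that fell and rose. At an unadjusted p under 0.05 in limma 2 were lower and 2 higher, beside 34.3% and 41.5% of varying probe sets, and by the SAM-type test 2 and 1, beside 23.3% and 20.3%. SGO1, a shugoshin that protects cohesin at centromeres, averaged 9.33 ± 0.34 in IVM and 10.73 ± 0.19 in immature oocytes (SD, n = 5 each), a difference of -1.40 with an adjusted p of 0.000459. STAG3, the cohesin subunit of meiosis, averaged 7.42 ± 0.45 in IVM and 8.82 ± 0.14 in immature oocytes (SD, n = 5 each), also -1.40, with an adjusted p of 0.00131, and its other probe set differed by -0.27. Both had all IVM arrays below all immature arrays. ESPL1, which encodes separase, had all IVM arrays above all immature arrays as deposited. Its difference was 1.18, with an adjusted p of 0.0204 in limma that did not pass, and 0.12 when centred on poly-A controls. This gene was named after its values had been seen.

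Over all 49 further genes of the pathway, 32 were on the array and 30 varied, of which 6 fell, 0 rose and 24 did not pass at an adjusted p under 0.0001 in limma, beside 12.1% and 2.38% of varying probe sets. At an unadjusted p under 0.05, 14 were lower and 6 higher, beside 34.3% and 41.5% of varying probe sets, and by the SAM-type test 12 and 3, beside 23.3% and 20.3%. Their median difference was -0.05 against 0.18 over all varying probe sets. Among the 35 varying genes of the set and the lists, 18 were positive and 17 negative as deposited, or 51.4% positive beside 57.5% of all varying probe sets. Centring on poly-A controls takes the same amount off every probe set, and 11.4% of the 35 genes were then positive, beside 17.3% of all varying probe sets. Most of the 35 had their lowest IVM value in 1 pool, as IVM replicate 4 was the lowest IVM array for 28 of them, beside 37.4% of all varying probe sets.

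The 5 genes whose pattern over the 10 arrays was nearest to that of FBXO5, each centred on its own mean, were PDE6C, ALAD, PUM3, DGAT2 and POLR1E. Their root mean square differences from FBXO5 were 0.86, 0.90, 1.09, 1.10 and 1.13 on the log2 scale. PDE6C, a phosphodiesterase of cone cells, differed by -6.55 between IVM and immature oocytes, and ALAD, an enzyme of haem synthesis, by -6.39. PUM3, an RNA-binding protein of the nucleolus, differed by -6.00, DGAT2, an enzyme of triglyceride synthesis, by -5.98, and POLR1E, a subunit of RNA polymerase I, by -5.88. These genes were chosen for that likeness, so their levels are a description. By size of fall they ranked 2, 4, 5, 6 and 7 among all probe sets, so the list is close to that of the largest falls.

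**Figure D5:**
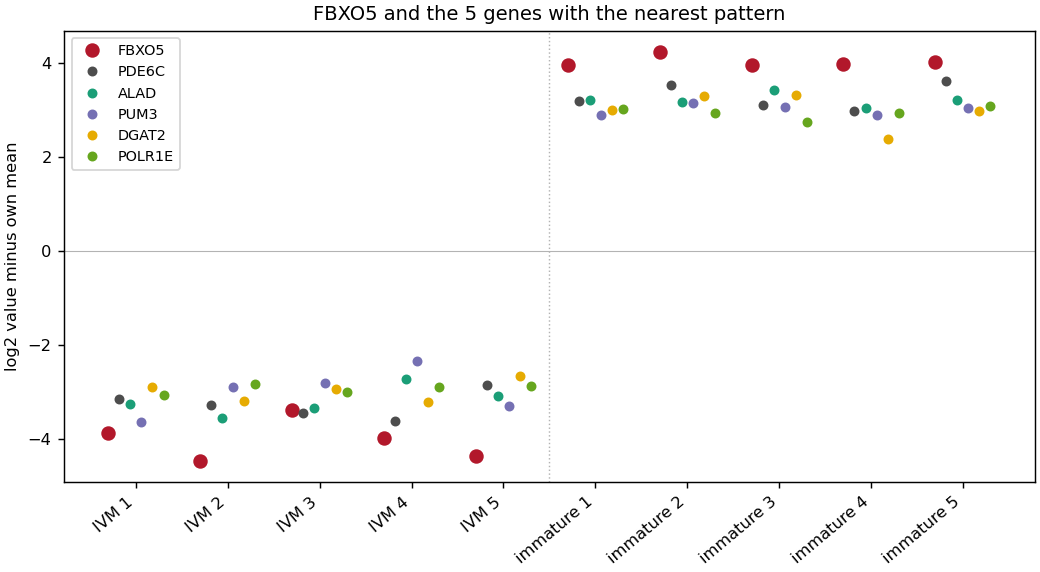
Log2 value minus the gene's own mean on each of the 10 arrays, IVM arrays left and immature arrays right, for FBXO5 (large points) and the 5 genes nearest to it by root mean square difference. FBXO5, which had the largest fall of all probe sets, lies farthest from zero on all immature arrays. It does so on 4 of the 5 IVM arrays, the exception being IVM replicate 3.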

How the data were processed

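RNA of the 10 pools was amplified and hybridised to Affymetrix bovine arrays. By qPCR, the paper compared random primers with anchored oligo(dT) primers, which favour transcripts with poly(A) tails. It reported a tendency to larger fold changes with oligo(dT) that was not significant. That comparison used genes over-expressed after maturation and reference genes, and neither FBXO5 nor another member was among them. Whether the length of poly(A) tails affected the array values was not tested. The authors read them with GCOS and used FARMS with quantile normalization to reduce the probes to log2 values, which they deposited. FARMS flattens probe sets whose probes share little signal, and quantile normalization gives all arrays a like distribution, so a shift of total RNA is not retained.

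Apart from 112 control probe sets, all 24016 were tested, of which 13292 had 1 symbol in the platform's annotation, 86 had several and 10638 were unnamed here. IVM was compared with immature in limma 3.58.1 (R 4.3.3) with lmFit and eBayes and Benjamini-Hochberg adjustment, called at an adjusted p under 0.0001. The study used this value for the SAM test on probes called informative, so calls made here over all probe sets are not the study's. Other steps used Python 3.11.15, pandas 2.3.3, numpy 2.4.6 and matplotlib 3.10.9, and the fits were tested on simulated data. With 5 arrays a group, their number limits the precision.

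The genes and lists were chosen with earlier results of these data known. Named genes were all members, up to 3 per direction past the threshold in each list (up to 2 by size where none passed), and the 5 genes nearest to FBXO5. A gene with several probe sets was represented by that of highest mean.

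The replicate number was used as a block in an alternative fit, since the study's methods make a replicate a day of collection. As a check of that pairing, the departures of equally numbered arrays from their group means correlated across probe sets at 0.143, -0.347, 0.0872, 0.672 and 0.359 for replicates 1 to 5. The other alternatives were filters on flat or dim probe sets, other centrings, a trended and robust eBayes, a SAM-type test with 100 permutations, immature replicates 4 and 5 alone, and leaving out each array.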

Additional observations from a re-analysis of the deposited data

Results flagged for a closer look

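Among 34 groups of 5 arrays screened for a single array far from the others, 3 stood out, where chance gives about 1 in 20. FBXO5 was highest in immature replicate 2 at 14.29, with the other immature arrays at 14.00 to 14.07. UBE2S was lowest in immature replicate 2 at 7.93, with the other immature arrays at 8.16 to 8.22. BUB3 was lowest in IVM replicate 4 at 10.94, with the other IVM arrays at 11.36 to 11.47.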

How the results depend on the processing

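At an adjusted p under 0.0001, 1 of the 5 varying members was lower and 0 were higher. The lower count was 2 over probe sets spanning at least 0.1 or 0.01, over those above the median mean, with the replicate block over varying probe sets, under both other centrings, by the SAM-type test and at an adjusted p under 0.05, and 0 with the replicate block over all probe sets and with immature replicates 4 and 5 alone. The higher count was 1 over probe sets spanning at least 0.1 or 0.01, 2 by the SAM-type test and 3 at 0.05. Both counts stayed at 1 and 0 without each array. The replicate block over all probe sets left 0 calls in every list, as it left none on the whole array, and so did immature replicates 4 and 5 alone. Counts in this section stand beside these shares. Centring on poly-A controls made 78.9% of all 24016 probe sets lower past 0.0001, and centring on the median made 1452 of them lower and 763 higher. At an adjusted p under 0.05 in limma, 31.7% of varying probe sets were lower and 34% higher, and by the SAM-type test 23.3% and 20.3%. Over probe sets spanning at least 0.01, 25.1% passed in either direction. Among other subunits, 4 were lower when centred on poly-A controls and at 0.05, and 1 was higher at 0.05. In the EMI turnover list, 2 were lower over probe sets spanning at least 0.1 or 0.01, when centred on poly-A controls, by the SAM-type test and at 0.05, and 1 was higher under the same filters, above the median mean, when centred on the median, by the SAM-type test and at 0.05. Among other substrates, 3 were lower when centred on poly-A controls and at 0.05 and 2 by the SAM-type test, and 1 was higher at 0.05. In the separase and cohesin list, 1 was lower over probe sets spanning at least 0.1 or 0.01, 3 when centred on poly-A controls and 2 by the SAM-type test and at 0.05, and 1 was higher by the SAM-type test and at 0.05. For the E2 enzymes 1 was higher by the SAM-type test and at 0.05. Without single arrays, the lower counts were 0 to 1 for EMI turnover, other substrates and separase and 1 to 2 for the checkpoint list, and the higher counts were 0 to 1 for EMI turnover, other substrates and other subunits. Signs turned for 14 of the 35 varying genes when centred on poly-A controls. Among them were CDC26 (-0.62), UBE2S (-0.034), MAD2L1 (-0.88), BUB1B (-0.89) and CCNB1 (-0.76). UBE2C lay between -0.25 and 0.051 without single arrays. The causes were not tested.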
